A study of Mus musculus with 7 samples.

Results

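Inflammasome receptors other than Aim2 were measured in bone marrow of Aim2 knock-out (KO) and wild-type (WT) mice. They were chosen by gene symbol, with earlier results of these data known, and comprise 10 of the 35498 genes with transcripts in the files. These are the flagellin and secretion-system receptors Naip2, Naip5 and Naip6, their partner Nlrc4, the sensors Nlrp3, Nlrp1a, Nlrp1b and Mefv, and the relatives Nlrp12 and Nlrx1. All 10 held enough reads to be tested, among 14238 tested genes. The mice were females aged between 5 and 6 months, and 3 libraries were labelled Aim2 KO (genotype "Aim2 knock out", also called AIM2 null) and 4 WT. The tissue label is bone marrow with no sorted cell type, and the labels give neither the strain nor the deleted part of Aim2. They also do not state that the libraries come from separate animals, so the p-values refer to the spread between libraries, which may be technical. In whole marrow, fewer cells of a type and less RNA per cell cannot be told apart.

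NLR proteins are cytosolic receptors built around a nucleotide-binding domain, usually followed by leucine-rich repeats. On sensing a microbial product or cell damage, several of them assemble with the adaptor ASC into an inflammasome, which activates caspase-1, matures interleukin-1 cytokines and opens the cell membrane through gasdermin D. In the mouse, NAIP proteins bind bacterial ligands and pass the signal to NLRC4, whereas Mefv encodes pyrin, which senses inactivation of RhoA GTPases and belongs to the TRIM proteins. In bone marrow these genes are known mainly from neutrophils, monocytes and macrophages, and Nlrx1, a mitochondrial member, is expressed in many cell types.

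The nucleotide-binding domain shows how the members relate to each other. A P-loop, the loop that holds the phosphates of ATP (glycine or alanine, 4 residues of any kind, glycine, lysine, then serine or threonine), was found by a search of the coding sequence in 9 of the 10 members and not in Mefv. Windows of 8 members follow, each with 60 coding bases of a GENCODE M21 transcript, with the motif's codons in capitals. On GRCm38 the windows lie on the minus strand at chr13:100161952-100162011 (Naip2), chr13:100223284-100223343 (Naip5), chr17:74446847-74446906 (Nlrc4), chr7:3241197-3241256 (Nlrp12), chr11:71123973-71124032 (Nlrp1a), chr11:71182572-71182631 (Nlrp1b), chr9:44263947-44264006 (Nlrx1), and on the plus strand at chr11:59548238-59548297 (Nlrp3).
Naip2: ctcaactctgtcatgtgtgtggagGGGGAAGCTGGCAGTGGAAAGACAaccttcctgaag
Naip5: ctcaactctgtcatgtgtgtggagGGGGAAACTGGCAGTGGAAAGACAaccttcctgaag
Nlrc4: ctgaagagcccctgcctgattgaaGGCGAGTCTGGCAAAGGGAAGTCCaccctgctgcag
Nlrp3: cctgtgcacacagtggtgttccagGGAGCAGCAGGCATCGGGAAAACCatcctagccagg
Nlrp12: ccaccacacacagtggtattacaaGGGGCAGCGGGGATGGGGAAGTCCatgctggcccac
Nlrp1a: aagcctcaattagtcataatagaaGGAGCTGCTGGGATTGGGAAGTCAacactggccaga
Nlrp1b: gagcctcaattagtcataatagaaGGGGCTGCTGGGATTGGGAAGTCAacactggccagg
Nlrx1: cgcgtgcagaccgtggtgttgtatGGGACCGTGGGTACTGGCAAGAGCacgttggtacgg

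All 9 P-loops open with a glycine codon. The Naip2 and Naip5 windows were identical at 59 of 60 bases. Nlrp1a and Nlrp1b matched at 57 of 60, Nlrp3 and Nlrp12 at 42, Nlrc4 and Naip5 at 33, and Nlrx1 and Nlrp3 at 35. Over the aligned bases of the coding sequences, with gaps left out, Naip5 and Naip6 were 97.0% identical. Naip2 and Naip5 were 89.99% identical in this way, Naip2 and Naip6 89.7%, Nlrp1a and Nlrp1b 86.2%, and Nlrp3 and Nlrp12 60.1%.

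Each library held 20300468 to 21099972 estimated reads. Aim2, the targeted gene, was at 7.37, 2.26 and 2.67 CPM (reads relative to the scaled library total) in KO libraries 1 to 3, against 32.2, 27.8, 25.9 and 25.5 CPM in WT libraries 1 to 4. Every KO library was below every WT library, and KO library 1 kept the most Aim2. The haemoglobin share of the reads was 11.3 to 13.7% in KO and 13.8 to 19.9% in WT, and it peaked in WT library 1. Markers of neutrophils, monocytes, B cells and erythroid cells were detected in the libraries and are given with the last comparison.

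None of the 10 sensors differed between KO and WT marrow at an adjusted p under 0.05, where 92 of all 14238 tested genes (0.646%) did (quasi-likelihood test of edgeR, Benjamini-Hochberg adjusted). Of all tested genes, 0.478% were higher and 0.169% lower in KO. The count of members was also 0 with DESeq2 (405 of all genes, 2.84%) and with limma voom and sample weights (305 of all genes, 2.14%). Without adjustment 1 member, Nlrx1, had p under 0.05 and was higher in KO, as did 11.5% of all tested genes in either direction and 6.45% with a higher level in KO. The members' log2 fold changes, KO over WT, ran from -0.09 (Nlrc4) to 0.34 (Naip2), with adjusted p between 0.312 and 0.915. Their median was 0.23, against -0.01 over all tested genes.

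The estimate was above 0 for 9 members and below 0 for Nlrc4, while 47.3% of all tested genes lay above 0. On length-corrected TPM values all 10 lay above 0, as did 68.8 to 76.2% of all genes, whose median lay at 0.06 to 0.13. With voom Nlrp1b joined Nlrc4 below 0. The 95% interval of the fold change stayed within 2-fold in either direction for all 10. The widest upper bound was a 1.96-fold higher level in KO (Nlrp1a) and the lowest bound a ratio of 0.695 (Nlrc4). For 3 members, Naip2, Naip6 and Nlrx1, every KO library lay above every WT library, as it did for 6.95% of all tested genes, and in 7 members the groups overlapped. No member was lower in every KO library than in every WT library, as 5.94% of all tested genes were.

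**Figure D1:**
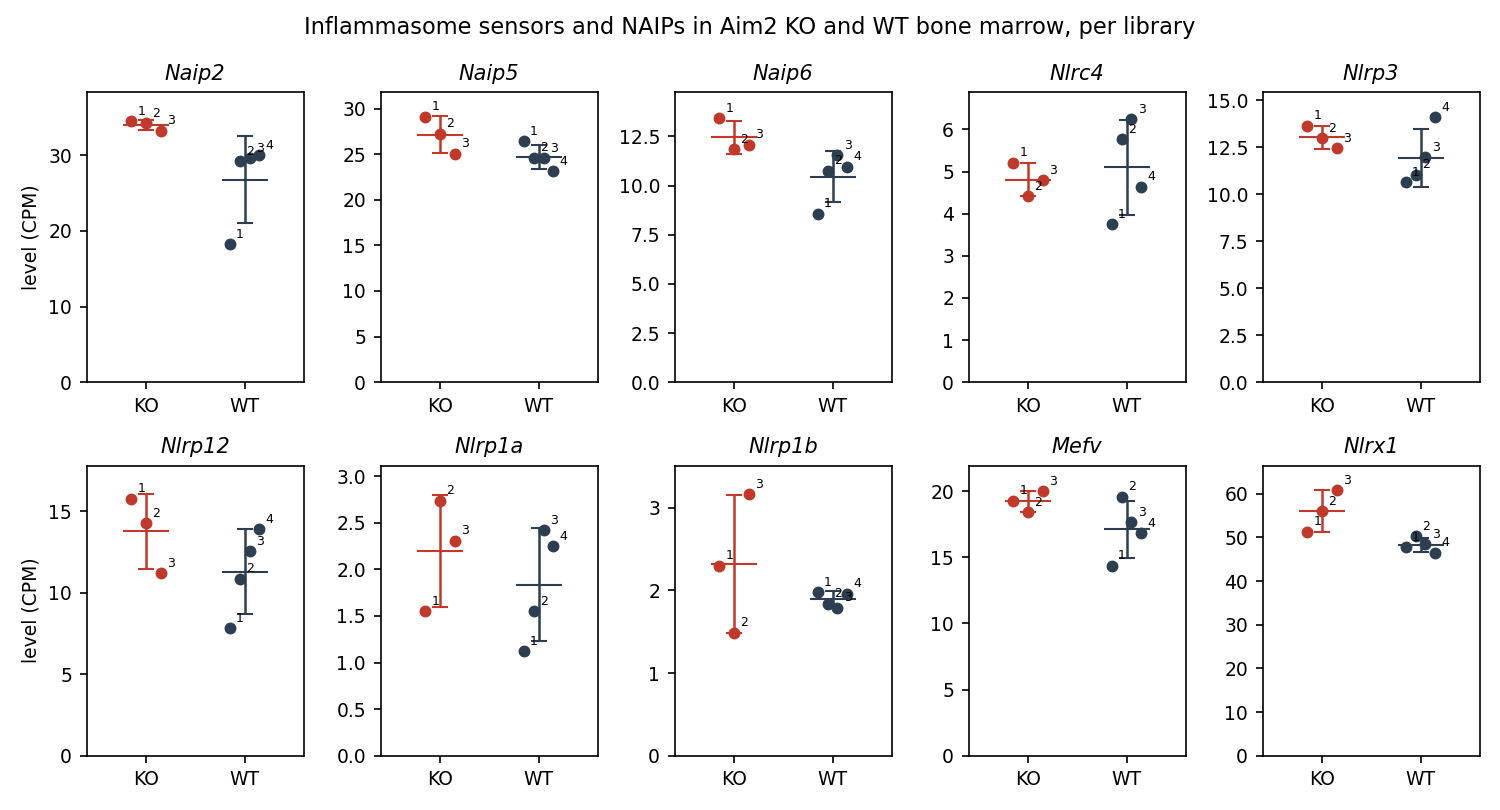
Level of each of the 10 members in CPM (vertical axes, from 0, separate per gene) in the 3 KO and 4 WT libraries; points are libraries with their number, the long line is the mean and the bars are ± 1 SD. Naip2, Naip6 and Nlrx1 have every KO point above every WT point, and WT library 1 is the lowest point of 7 members.

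By TPM, which allows levels of different genes to be compared, Nlrx1 led the members at 17.4 ± 1.99 TPM in KO (SD, n = 3) and 13.4 ± 1.71 TPM in WT (SD, n = 4). In KO it was followed by Naip2 (7.45), Mefv (6.80), Naip5 (5.39), Nlrp3 (3.31), Nlrp12 (2.79), Naip6 (1.90), Nlrc4 (1.09), Nlrp1a (0.596) and Nlrp1b (0.575 TPM). The libraries of neighbours overlapped in KO between Naip2 and Mefv, between Nlrp3 and Nlrp12, and between Nlrp1a and Nlrp1b, and did not between the other neighbours. In WT the order was the same except that Mefv (5.52) and Naip2 (5.41 TPM) changed places within their overlap. The lowest WT means were 0.464 TPM for Nlrp1a and 0.416 TPM for Nlrp1b. In WT only Nlrx1 stood clear of its neighbour Mefv and Naip5 of its neighbour Nlrp3, and all other neighbours overlapped. The Nlrp12 values include Nlrp12-202, a transcript annotated as a retained intron. It held 40.4 to 55.0% of the Nlrp12 TPM in KO and 39.8 to 56.9% in WT. The protein-coding Nlrp12-201 alone was at 1.281 to 1.596 TPM in KO and 0.687 to 1.356 TPM in WT. It was below Naip6 in every library, so the place of Nlrp12 above Naip6 rests on counting both transcripts.

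**Figure D2:**
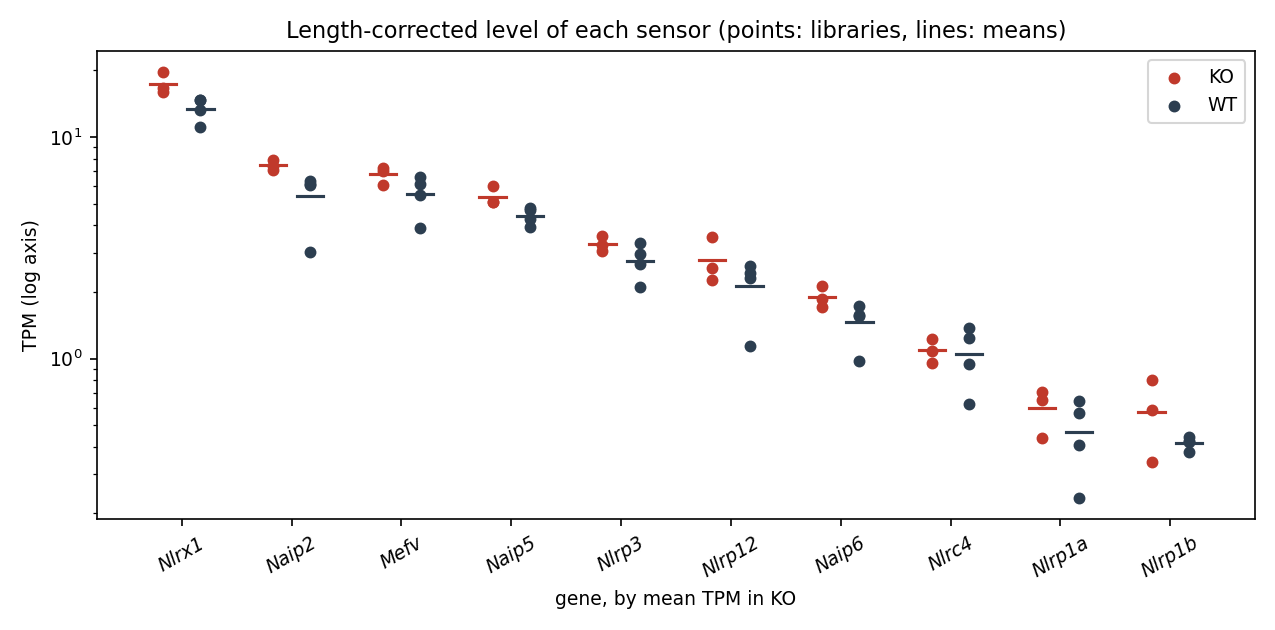
TPM of each member on a log axis, ordered by its mean in KO; points are libraries, KO left of WT, and short lines are means. Nlrx1 is the highest in both groups (17.4 TPM in KO, 13.4 TPM in WT) and Nlrp1a and Nlrp1b are the lowest, below 1 TPM in every library.

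The 3 NAIP receptors are neighbours on the minus strand of chromosome 13 of GRCm38, at 100144063 to 100202092 (Naip2, ENSMUSG00000078945.10), 100211739 to 100246323 (Naip5, ENSMUSG00000071203.6) and 100281121 to 100317674 (Naip6, ENSMUSG00000078942.10). Naip2, the receptor of the inner rod protein of bacterial type III secretion systems, had 34.5, 34.3 and 33.3 CPM in KO libraries 1 to 3, against 18.2, 29.3, 29.6 and 30.1 CPM in WT libraries 1 to 4. The KO libraries were close together and above all WT libraries, among which WT library 1 was far below the other 3. Its mean was 34.0 ± 0.677 CPM in KO (SD, n = 3) and 26.8 ± 5.72 CPM in WT (SD, n = 4), a log2 fold change of 0.34 ± 0.16 (SE; 95% interval -0.03 to 0.72; adjusted p = 0.481, quasi-likelihood test of edgeR, Benjamini-Hochberg adjusted). Without WT library 1 the Naip2 log2 fold change was 0.20 (adjusted p = 0.245, edgeR).

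Naip5, a flagellin receptor, had 29.1, 27.2 and 25.1 CPM in KO libraries 1 to 3, against 26.4, 24.6, 24.6 and 23.2 CPM in WT libraries 1 to 4. The groups overlapped through WT library 1, here the highest of the WT libraries. The difference was a log2 fold change of 0.14 ± 0.08 (SE; 95% interval -0.05 to 0.32; adjusted p = 0.592, quasi-likelihood test of edgeR, Benjamini-Hochberg adjusted). Naip6, its close copy and also a flagellin receptor, had 13.4, 11.9 and 12.1 CPM in KO libraries 1 to 3, against 8.58, 10.8, 11.5 and 11.0 CPM in WT libraries 1 to 4. Every KO library was above every WT library, by a narrow margin over WT library 3. The log2 fold change of Naip6 was 0.25 ± 0.12 (SE; 95% interval -0.02 to 0.52; adjusted p = 0.470, same test in edgeR).

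Nlrc4 (ENSMUSG00000039193.9; chromosome 17, 74425438 to 74459142, minus strand) encodes the protein that NAIPs recruit to form the inflammasome. It had 5.21, 4.42 and 4.80 CPM in KO libraries 1 to 3, against 3.75, 5.77, 6.25 and 4.64 CPM in WT libraries 1 to 4. The KO libraries lay inside the WT range. Its log2 fold change was -0.09 ± 0.19 (SE; 95% interval -0.53 to 0.35; adjusted p = 0.915, edgeR), and the sign turned to 0.03 without WT library 3. Whether Nlrc4 differed from Naip2 and Naip6 in its response was not tested.

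The NAIP genes share sequence, so the split of reads between them is an estimate made by Salmon. Of the distinct stretches of 31 bases in its transcripts, Naip5 shared 48.4% with the other 3 Naip genes, Naip6 33.8%, the fourth gene Naip1 33.2% and Naip2 29.2%. The sum of Naip2, Naip5 and Naip6 does not depend on the split among these 3. It came to 77.1, 73.4 and 70.4 CPM in KO libraries 1 to 3, against 53.2, 64.6, 65.7 and 64.2 CPM in WT libraries 1 to 4. As with Naip2 alone, every KO library was above every WT library and WT library 1 was the lowest, and the ratio of the means was 1.19. The sum was described with no test. The TPM of Naip2 over that of Naip5 was 1.31, 1.39 and 1.46 in KO libraries 1 to 3 and 0.767, 1.31, 1.33 and 1.43 in WT libraries 1 to 4, so that only WT library 1 had more Naip5 than Naip2. Naip1, the receptor of the secretion needle, was at 0.575 ± 0.09 CPM in KO (SD, n = 3) and 0.585 ± 0.089 CPM in WT (SD, n = 4), and its log2 fold change was -0.02 with an SE of 0.27 (adjusted p = 0.992, edgeR).

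Within genes, the reads of Naip6 went to different transcripts in different libraries. Naip6-201 was listed at 0 in KO libraries 2 and 3 but held 192 reads in KO library 1 and 117 to 206 reads in the WT libraries. Naip6-202, which starts farther upstream, held an estimated 93.1, 247 and 267 in KO libraries 1 to 3, against 35.4, 104, 31.6 and 31.8 in WT libraries 1 to 4. In KO libraries 2 and 3 it thus took all reads of the gene. Naip2-201 took 67.8 to 99.3% of the Naip2 reads in KO and 45.4 to 100% in WT, where WT library 1 had no read on another Naip2 transcript. These transcripts overlap along most of their length, and their estimates carry no error in the files and were not tested.

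**Figure D3:**
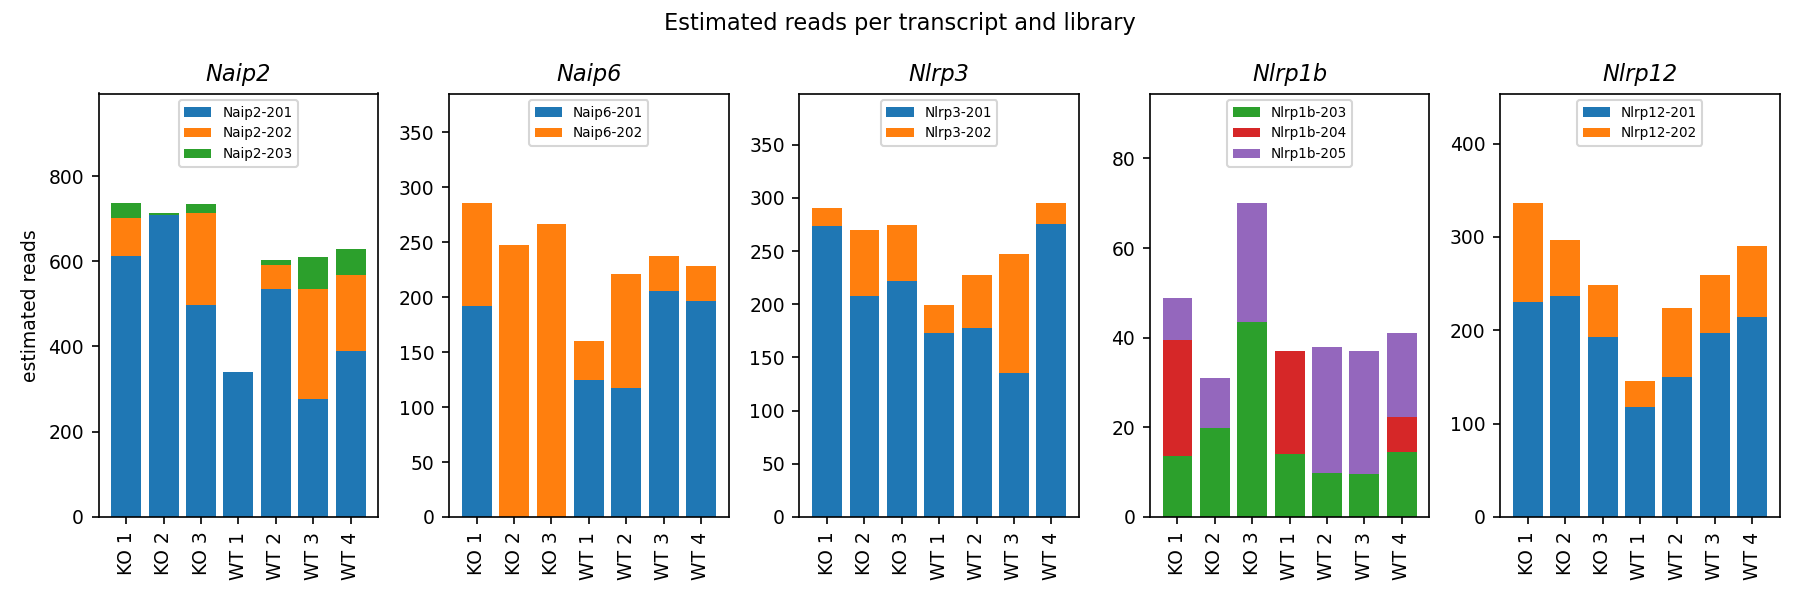
Estimated reads per transcript (stacked bars from 0, separate vertical axes) for 5 members in the 3 KO libraries, on the left, and the 4 WT libraries. The Naip6 reads of KO libraries 2 and 3 stand on Naip6-202 alone, while every other library has reads on both Naip6 transcripts.

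Nlrp3 (ENSMUSG00000032691.14; chromosome 11, 59541568 to 59566956, plus strand) encodes the sensor that responds to potassium efflux and many forms of cell damage. It had 13.7, 12.97 and 12.4 CPM in KO libraries 1 to 3, against 10.7, 11.0, 11.97 and 14.1 CPM in WT libraries 1 to 4. The KO libraries lay inside the WT range, below WT library 4. The means were 13.03 ± 0.610 CPM in KO (SD, n = 3) and 11.95 ± 1.54 CPM in WT (SD, n = 4), with a log2 fold change of 0.12 ± 0.11 (SE; 95% interval -0.14 to 0.38; adjusted p = 0.742, quasi-likelihood test of edgeR, Benjamini-Hochberg adjusted). Most Nlrp3 reads went to Nlrp3-201, which begins at the upstream start, with reads numbering 274, 208 and 222 in KO libraries 1 to 3 and 173, 178, 136 and 276 reads in WT libraries 1 to 4. Nlrp3-202, from the downstream start, held 17.05 to 62.4 reads in KO and 19.2 to 111 reads in WT.

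Nlrp1a (ENSMUSG00000069830.10) and Nlrp1b (ENSMUSG00000070390.12) are tandem copies on the minus strand of chromosome 11, at 71092236 to 71144704 and 71153102 to 71230733. NLRP1B is known as the target of anthrax lethal factor in sensitive mouse strains, and activation of NLRP1A in mice causes loss of blood progenitors. Both were the least abundant members, with 33 to 57 reads per KO library and 21 to 50 per WT library for Nlrp1a, and 31 to 70 per KO library and 37 to 41 per WT library for Nlrp1b. Of their distinct stretches of 31 bases, Nlrp1a shared 9.91% and Nlrp1b 6.07% with the other Nlrp1 genes, less than the NAIP genes shared among themselves.

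Nlrp1a had 1.55, 2.74 and 2.31 CPM in KO libraries 1 to 3, against 1.13, 1.55, 2.42 and 2.25 CPM in WT libraries 1 to 4. The groups overlapped, and its log2 fold change was 0.25 ± 0.31 (SE; 95% interval -0.46 to 0.97; adjusted p = 0.817, edgeR). Nlrp1b had 2.30, 1.49 and 3.17 CPM in KO libraries 1 to 3, against 1.98, 1.84, 1.79 and 1.96 CPM in WT libraries 1 to 4. The WT libraries were close together, with KO libraries 1 and 3 above them and KO library 2 below. The log2 fold change of Nlrp1b was 0.29 ± 0.26 (SE; 95% interval -0.29 to 0.88; adjusted p = 0.724, edgeR), and it was -0.0035 without KO library 3 and -0.04 with voom. Summed, both genes held 82, 88 and 121 reads in KO libraries 1 to 3 and 58, 70, 87 and 88 reads in WT libraries 1 to 4, again with overlap. Nlrp1b-203, which begins at the downstream start, held 13.7, 19.8 and 43.6 reads in KO libraries 1 to 3 and 14.1, 9.89, 9.60 and 14.4 reads in WT libraries 1 to 4. From the upstream start, Nlrp1b-204 held 25.7, 0 and 0 reads in KO and 22.9, 0, 0 and 7.99 reads in WT. Nlrp1b-205, also from the upstream start and annotated as a target of nonsense-mediated decay, held 9.52, 11.2 and 26.4 reads in KO. In WT it held 0, 28.1, 27.4 and 18.6 reads.

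The promoter windows of the Nlrp1 copies and of Nlrp3 are shown because reads were assigned to transcripts from more than 1 start in Nlrp3 and Nlrp1b, and because the Nlrp1 copies keep their likeness here. RefSeq windows on GRCm38.p6 run from 250 bases before to 50 bases after a start, and there were 13 such windows for the 10 members. Nlrp1a is at chr11:71144655-71144954 (minus strand), the upstream start of Nlrp1b at chr11:71230684-71230983 (minus strand) and the upstream start of Nlrp3 at chr11:59541319-59541618 (plus strand). Capitals mark a PU.1 core, GAGGAAG, in the Nlrp1 windows and a short NF-kB motif (GGGA, any 4 bases, CC) in the Nlrp3 window.
Nlrp1a: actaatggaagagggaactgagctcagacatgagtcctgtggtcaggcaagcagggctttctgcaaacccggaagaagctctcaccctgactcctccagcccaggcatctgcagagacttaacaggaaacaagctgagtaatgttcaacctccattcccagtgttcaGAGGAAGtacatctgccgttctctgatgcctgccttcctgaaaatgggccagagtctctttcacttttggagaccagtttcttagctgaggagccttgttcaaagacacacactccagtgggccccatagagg
Nlrp1b: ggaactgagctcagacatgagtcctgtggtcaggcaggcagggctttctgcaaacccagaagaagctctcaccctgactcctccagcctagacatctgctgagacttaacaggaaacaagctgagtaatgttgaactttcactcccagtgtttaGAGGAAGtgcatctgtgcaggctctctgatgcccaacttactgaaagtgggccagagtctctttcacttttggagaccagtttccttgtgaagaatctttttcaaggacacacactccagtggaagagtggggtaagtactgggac
Nlrp3: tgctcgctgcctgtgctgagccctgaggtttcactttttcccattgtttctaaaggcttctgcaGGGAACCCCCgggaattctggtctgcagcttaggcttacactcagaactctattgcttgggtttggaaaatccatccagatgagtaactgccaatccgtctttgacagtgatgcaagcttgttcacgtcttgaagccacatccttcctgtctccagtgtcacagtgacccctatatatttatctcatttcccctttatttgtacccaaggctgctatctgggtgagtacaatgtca

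The Nlrp1a window and the upstream Nlrp1b window were identical at 88.5% of 286 aligned bases, and Nlrp1a and the downstream Nlrp1b window at 57.6% of 257. Both strands were searched for 4 motifs. GAGGAAG was found in 3 of the 13 windows, those of Nlrp1a, upstream Nlrp1b and downstream Nlrp3, and in 13.6% of 32851 promoter windows. The NF-kB motif was found in 2 windows, those of upstream Nlrp3 and 1 of Nlrx1, and in 20.7% of all windows. The core of the interferon-stimulated response element (GAAA, any 2 bases, GAAA) was in none of the 13 windows and in 3.44% of all, and the Ets-IRF core (GGAA, any 2 bases, GAAA), which can overlap it, was in none of the 13 and in 2.72% of all. A match of letters is a description and not a site of binding.

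Mefv (ENSMUSG00000022534.14; chromosome 16, 3707218 to 3718097, minus strand), the pyrin gene, had 19.3, 18.4 and 20.0 CPM in KO libraries 1 to 3, against 14.4, 19.6, 17.6 and 16.8 CPM in WT libraries 1 to 4. WT library 2 reached the KO range and WT library 1 was the lowest. The log2 fold change was 0.17 ± 0.11 (SE; 95% interval -0.08 to 0.42; adjusted p = 0.623, quasi-likelihood test of edgeR, Benjamini-Hochberg adjusted). Nlrp12 (ENSMUSG00000078817.4; chromosome 7, 3218784 to 3249740, minus strand), a receptor known in mice to dampen NF-kB signalling, had 15.8, 14.3 and 11.2 CPM in KO libraries 1 to 3, against 7.83, 10.9, 12.6 and 13.9 CPM in WT libraries 1 to 4. Its KO libraries spread over a range that held WT libraries 3 and 4. The log2 fold change of Nlrp12 was 0.28 ± 0.20 (SE; 95% interval -0.17 to 0.74; adjusted p = 0.646, edgeR), and 0.15 without WT library 1.

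Nlrx1 (ENSMUSG00000032109.15; chromosome 9, 44252717 to 44268599, minus strand) encodes a mitochondrial NLR known to restrain antiviral signalling, and it is not known to nucleate a classical inflammasome. It had 51.3, 56.0 and 60.8 CPM in KO libraries 1 to 3, against 47.8, 50.3, 48.5 and 46.5 CPM in WT libraries 1 to 4. Every KO library was above every WT library, narrowly for KO library 1, and the KO libraries were the more widely spread. The means were 56.0 ± 4.76 CPM in KO (SD, n = 3) and 48.3 ± 1.58 CPM in WT (SD, n = 4). The 1.16-fold difference (log2 0.21 ± 0.07, SE; 95% interval 0.05 to 0.38) had an unadjusted p of 0.0173 and an adjusted p of 0.312 (quasi-likelihood test of edgeR, Benjamini-Hochberg adjusted). Nlrx1 had the smallest p of the members.

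All tested genes outside the members were compared with Nlrx1 by their centred log2(CPM + 0.5) values over the 7 libraries. The nearest 3 were Treml2, Flot1 and Lipt2, with mean absolute differences of 0.020, 0.027 and 0.028. Treml2 had 130, 142 and 160 CPM in KO libraries 1 to 3 and 118, 125, 123 and 120 CPM in WT libraries 1 to 4, and an adjusted p of 0.304 (edgeR).

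**Figure D4:**
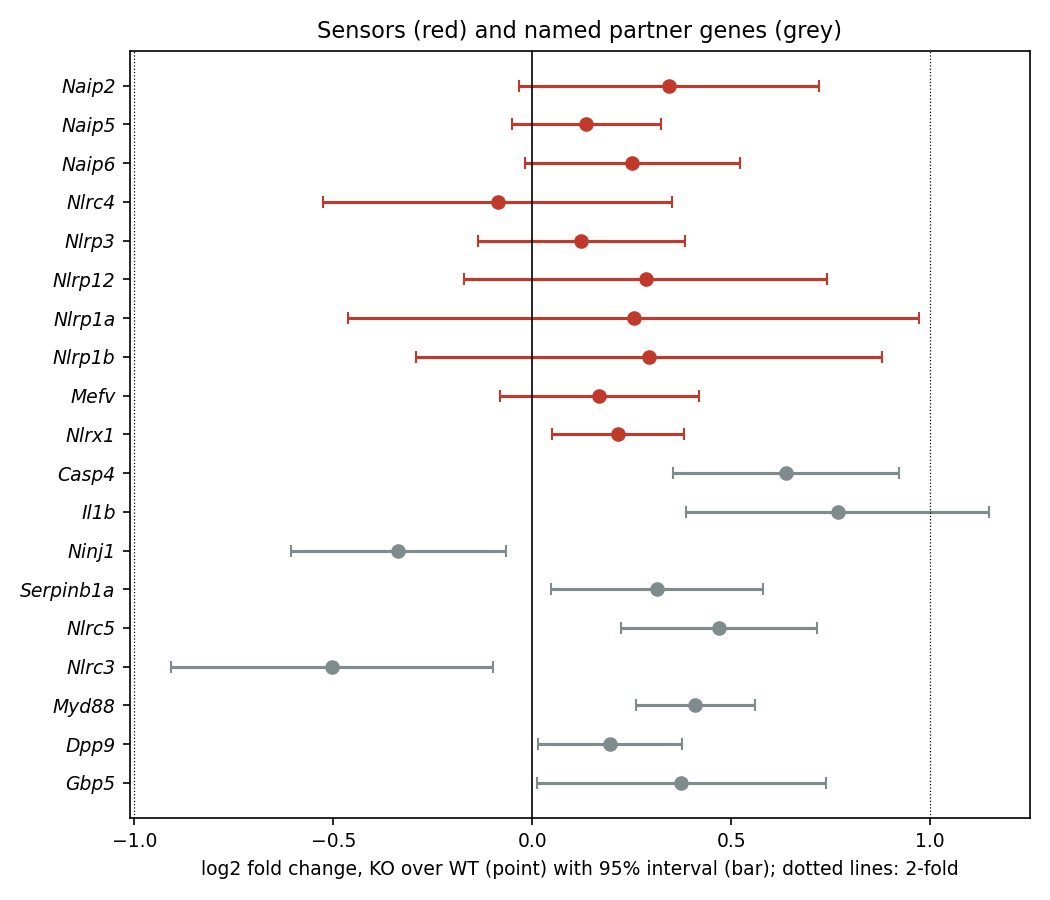
Log2 fold change, KO over WT (point), with its 95% interval (bar) for the 10 members (red) and for 9 genes of the partner lists (grey); dotted lines mark 2-fold. The intervals of 9 members include 0, that of Nlrx1 runs from 0.05 to 0.38 with an adjusted p of 0.312, and all 10 stay inside 2-fold.

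The partner genes were read from 5 lists chosen with earlier results known. Among 14 genes of inflammasome assembly and output, 0 changed (quasi-likelihood test of edgeR, Benjamini-Hochberg adjusted), 8 had an unadjusted p under 0.05 (7 higher and 1 lower in KO), DESeq2 called 2 and voom 1, and the median log2 fold change was 0.15. Casp4, the caspase that binds lipopolysaccharide in the cytosol, was at 14.0 ± 1.82 CPM in KO (SD, n = 3) and 8.98 ± 0.903 CPM in WT (SD, n = 4), which is 0.64 ± 0.12 in log2 (SE, KO over WT; adjusted p = 0.0812, edgeR; 0.00244, DESeq2). Il1b, the cytokine matured by these complexes, averaged 24.7 ± 3.87 CPM in KO (SD, n = 3) and 14.5 ± 2.85 CPM in WT (SD, n = 4), which is 0.77 ± 0.17 in log2 (SE, KO over WT; adjusted p = 0.107, edgeR; 0.00204, DESeq2). In Casp4 and Il1b every KO library was above every WT library, and the estimates of Naip2 and Nlrx1, 0.34 and 0.21, were smaller than both. Serpinb1a, a serpin that inhibits neutrophil serine proteases, differed by 0.31 ± 0.12 in log2 (SE; KO over WT; adjusted p = 0.358, edgeR), and Ninj1, which ruptures the membrane of dying cells, -0.34 ± 0.12 (SE; adjusted p = 0.331, edgeR).

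Of 14 related NLR genes, 4 had no read in any library, 8 were tested and 0 changed (quasi-likelihood test of edgeR, Benjamini-Hochberg adjusted), with 3 at an unadjusted p under 0.05 and a median of 0.06. DESeq2 called 1 of the 8, Nlrc5, the activator of class I antigen presentation, and voom called 0. Nlrc5 was at 37.7 ± 2.22 CPM in KO (SD, n = 3) and 27.2 ± 3.52 CPM in WT (SD, n = 4), which is 0.47 ± 0.11 in log2 (SE, KO over WT; adjusted p = 0.127, edgeR; 0.0109, DESeq2). Nod1, a receptor of bacterial cell wall fragments, had a log2 fold change of 0.25, Nlrc3 of -0.50 and Ciita, the activator of class II genes, of -0.63, with adjusted p from 0.332 to 0.508 (edgeR). Of 18 tested regulators of the sensors, 0 changed (2 at an unadjusted p under 0.05, 0 with DESeq2 and 0 with voom), with a median of 0.03. Dpp9, an inhibitor of NLRP1, had a log2 fold change of 0.20 and its relative Dpp8 of 0.08 and Gbp5 of 0.37 (adjusted p from 0.402 to 0.743, edgeR).

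In the priming list, which feeds the NF-kB signal that raises Nlrp3 and Il1b, 1 of 13 genes rose and 0 fell, with a median of 0.19. Myd88, the adaptor of Toll-like and interleukin-1 receptors, was at 75.6 ± 3.20 CPM in KO (SD, n = 3) and 56.9 ± 2.47 CPM in WT (SD, n = 4), which is 0.41 ± 0.07 in log2 (SE, KO over WT; adjusted p = 0.0421, quasi-likelihood test of edgeR, Benjamini-Hochberg adjusted). Myd88 was also called by DESeq2 (adjusted p = 1.93e-05) and voom (adjusted p = 0.00977), but not on log2 TPM. The Myd88 call was lost when any of the 7 libraries was left out (adjusted p = 0.0607 to 0.155, edgeR), while its log2 fold change stayed between 0.37 and 0.44. Nfkbiz, also of the priming list, stood at 0.28 in log2, KO over WT (adjusted p = 0.534, edgeR). Of 8 myeloid transcription factors 0 changed (1 at an unadjusted p under 0.05, 0 with DESeq2 and 0 with voom; median 0.07), with Klf4 at 0.30 and Spi1, which encodes PU.1, at 0.31 on the log2 scale.

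For comparison, a list of 25 interferon-stimulated genes was read, also chosen with earlier results of these data known. Of these, 19 rose, as did 0.478% of all tested genes (median log2 fold change of the 25 genes 0.98; quasi-likelihood test of edgeR, Benjamini-Hochberg adjusted). They included Usp18, Oas1a, Dhx58, Oas2, Zbp1, Rtp4, Oasl2, Ifi44, Ifit1, Ifit3, Stat2, Oasl1, Irf7, Parp14, Ifih1, Oas3, Irf9 and Ddx58. The count fell to 6 without KO library 2, 7 without WT library 2, and 10 without KO library 1 or without WT library 3. Over all 25 genes the log2 fold changes ran from 0.30 to 2.09, so the lowest of them lay below the 0.34 of Naip2.

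Since the sensors are known from myeloid cells, their values were set beside those of marker lists. Of 12 mature neutrophil markers 0 changed (quasi-likelihood test of edgeR, Benjamini-Hochberg adjusted; 4 at an unadjusted p under 0.05, 1 with DESeq2 and 1 with voom), and none was at 0 in every library. Their summed level was 24119 to 26024 CPM in KO and 18311 to 23824 CPM in WT, with no overlap, and their median log2 fold change was 0.26, close to the members' 0.23. Per library, the median of the 10 members against the WT mean was 0.21, 0.16 and 0.22 in KO libraries 1 to 3 and -0.25, 0.02, 0.10 and 0.06 in WT libraries 1 to 4. The same median over the neutrophil markers was 0.29, 0.30 and 0.27 in KO libraries 1 to 3 and -0.25, -0.04, 0.15 and 0.13 in WT libraries 1 to 4. The monocyte median was 0.51, 0.33 and 0.60 in KO libraries 1 to 3 and -0.13, -0.05, 0.13 and 0.16 in WT libraries 1 to 4. All 3 medians were higher in every KO library than in every WT library and lowest in WT library 1.

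With the neutrophil median subtracted in each library, the difference between KO and WT was -0.35 for Nlrc4 and between -0.16 and 0.08 for the other 9 members, on the log2 scale. That median was 0.29 higher in KO than in WT, so the subtraction lowered the difference of every member by this same amount. It restates the values above and is not separate evidence. Nlrc4 was then lower in every KO library (at most -0.236) than in every WT library (at least -0.229), narrowly. In the other 9 members the groups overlapped. The share of all tested genes without overlap after this subtraction was not computed. A gene with equal levels in both groups would also come out lower in KO, so the value is not particular to Nlrc4. The neutrophil list was the only one subtracted. The part of cell numbers in the members' values was not tested. In the monocyte list 1 of 10 genes rose, Cd300e (quasi-likelihood test of edgeR, Benjamini-Hochberg adjusted), 8 had an unadjusted p under 0.05 (7 higher and 1 lower in KO), DESeq2 called 5 and voom 3, and the median was 0.44. The Cd300e call was lost without WT library 2 (adjusted p = 0.0515, edgeR) and held with each other library left out. The summed level of the monocyte list was 1027 to 1241 CPM in KO and 665 to 904 CPM in WT. B cell markers ran the other way, with a summed level of 175 to 292 CPM in KO and 383 to 611 CPM in WT and a median of -0.95 (0 of 11 changed, 9 at an unadjusted p under 0.05, 7 with DESeq2 and 5 with voom).

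The other marker lists gave 0 changed genes in edgeR, apart from Cd209a, which fell, among 6 tested dendritic markers (median 0.06). The Cd209a call held without KO library 3 or WT library 1 and was lost without any 1 of the other 5 libraries (adjusted p up to 0.0913, edgeR). Medians were 0.27 for neutrophil precursor markers (0 of 6 at an unadjusted p under 0.05), 0.08 for macrophage (0 of 8), 0.53 for plasma cell (5 of 6), -0.22 for T and NK cell (4 of 8), -0.36 for erythroid (1 of 8) and 0.97 for eosinophil and basophil markers (0 of 5). Over all 87 tested markers edgeR called 2, DESeq2 19 and voom 11. Skeletal muscle markers spanned 50.6 to 5214 CPM in KO and 951 to 1915 CPM in WT. Their median log2 fold change was 0.49 from the edgeR fit, but the list medians per library differed by -1.30 in log2, KO minus WT, so no direction is given.

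WT library 1 stood apart in the members as elsewhere. It was the lowest of the 7 libraries for 7 members by CPM and for 9 by TPM, where 23.7% and 58.6% of all tested genes were lowest there. Without it the members' median log2 fold change was 0.16, and 4 members, now with Naip5, had no overlap between groups, as 17.6% of all genes did. Without KO library 1, which kept the most Aim2, the median was 0.18 and the same 3 members had no overlap, as 22.3% of all genes did. In neither case was a member called.

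**Figure D5:**
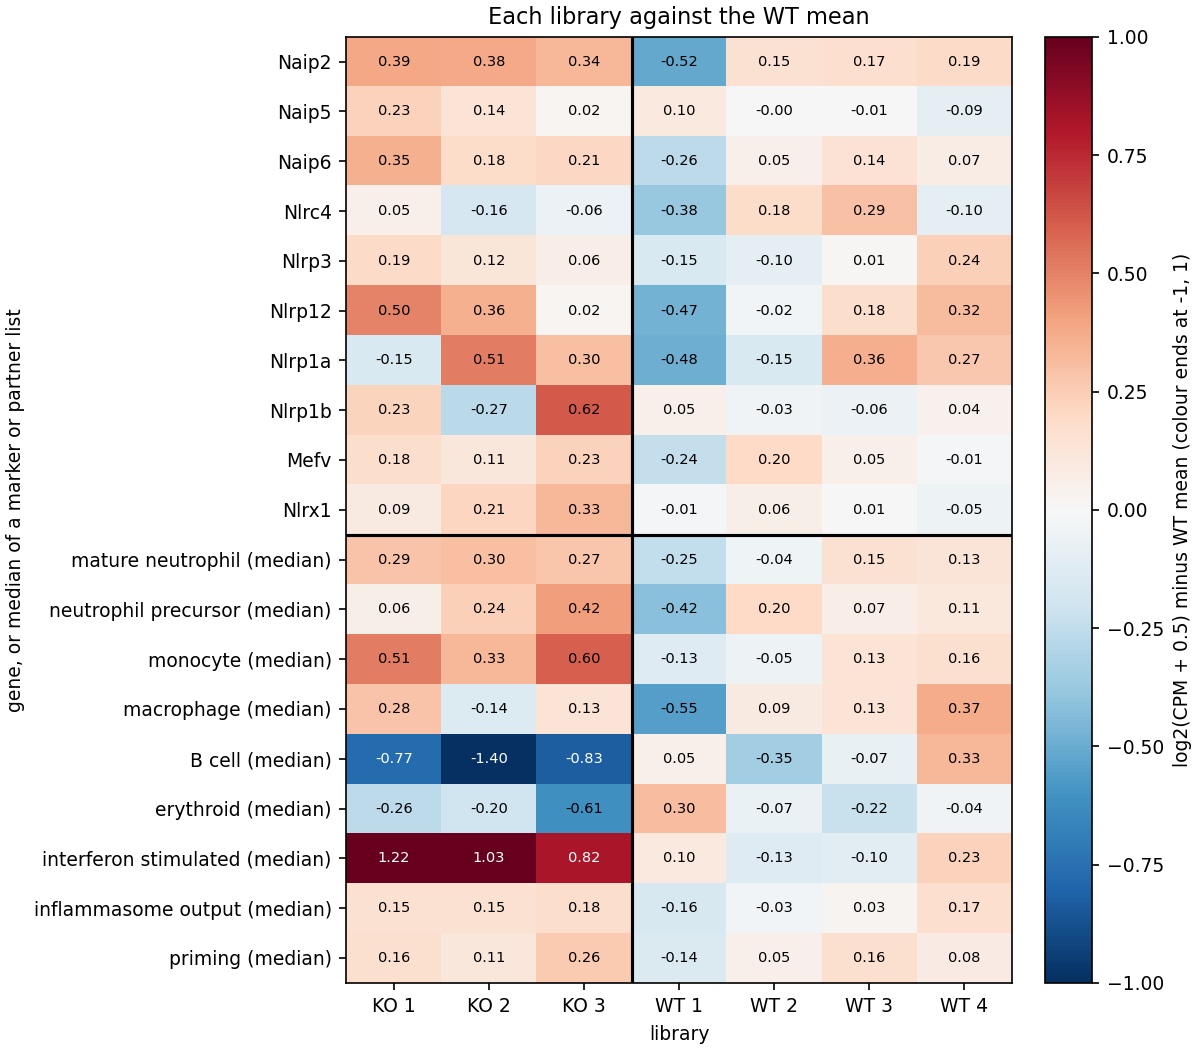
Log2(CPM + 0.5) minus the mean of the WT libraries, per library, for the 10 members (above the line) and as the median of 9 marker or partner lists (below it); KO libraries are on the left, red is above the WT mean and colour ends at -1 and 1. Naip2 is at 0.34 to 0.39 in KO and at -0.52 in WT library 1, and the interferon-stimulated median is at 0.82 to 1.22 in KO.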

How the data were processed

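Strand-specific libraries of bone marrow mRNA, 3 Aim2 KO and 4 WT, were sequenced. The submitters' processing notes name FastQC 0.11.9, Salmon 1.7.0 (options and annotation not given in the sources used here), DESeq2 and the build GRCm38.p6. The authors deposited estimated counts per transcript from Salmon, not normalized, and TPM, which the authors' deposited files scale for effective length. The files hold 116546 transcripts, of which 569 had no gene in GENCODE M21 (at most 0.0662% of a library's reads) and were left out. Counts were summed to 35498 genes and rounded. After filterByExpr, 14238 genes were tested with edgeR 4.0.16 (R 4.3.3) by its quasi-likelihood test, with TMM factors of 0.918 to 1.06, genotype as the only term and Benjamini-Hochberg adjustment. An adjusted p under 0.05 was called changed. CPM is scaled by TMM. SE is the absolute log2 fold change over the square root of F, and 95% intervals use 8.23 degrees of freedom. The steps were tested on simulated data with changes larger than any estimate of the members. That test does not show whether changes as small as theirs could be called.

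The members and the 17 gene lists were chosen with earlier results of these data known. The text names the 10 members, Aim2, the 2 genes with the smallest p in each list (4 for output, regulators and related NLRs; marker lists are given by their counts, and some items that this rule names are not reported here), listed genes that passed, and the 3 genes most like the member with the smallest p. The alternatives tried were other scalings (RLE, or TMM with haemoglobin, immunoglobulin and mitochondrial genes removed), DESeq2 1.42.0, limma 3.58.1 (voom with sample weights, and log2 TPM with a pseudocount of 0.1 or 1), other filters and thresholds, a length offset, the replicate number as a block, and each library left out. Promoter windows are from RefSeq, and all 10 members matched. Reads of similar genes and transcripts are split by Salmon's model. Annotated genes overlapping members were 2 processed pseudogenes with at most 1 read per group.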

Additional observations from a re-analysis of the deposited data

Results flagged for a closer look

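WT library 1 lay far below the other 3 WT libraries in Naip2, at 18.2 CPM against 29.3 to 30.1 CPM, and at 3.03 TPM against 6.10 to 6.36 TPM. The sum of Naip2, Naip5 and Naip6 showed the same gap, with 993 reads in WT library 1 against 1334 to 1356 reads in the others, or 53.2 CPM against 64.2 to 65.7 CPM. With Naip1 added, the sum was 1006 reads against 1346 to 1368 reads, or 53.9 CPM against 64.7 to 66.3 CPM. The median of the myeloid transcription factor list was -0.36 in WT library 1 against 0.10 to 0.16, and that of the dendritic list -0.20 against 0.06 to 0.10, on the log2 scale against the WT mean. In each case the gap to the nearest library was larger than Dixon's 95% limit for 4 samples. The Naip sums contain the Naip2 values, so these are not separate signs. Chance gives such a gap in about 1 in 20 groups (5%), and 51 groups were examined.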

How the results depend on the processing

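No member was called in any of the 20 alternatives, and members' adjusted p lay between 0.151 and 0.996. The alternatives include the main edgeR fit read at thresholds of 0.1 and 0.01, which are not separate fits. The stricter threshold could not add a call. Nlrp1b turned to -0.0415 with voom, and with each library left out it ranged from -0.0035 to 0.53. Nlrc4 turned to 0.10 on log2(TPM + 0.1) and to 0.0423 on log2(TPM + 1) with and without the filter, and ranged from -0.21 to 0.0258 with each library left out. Ranges with each library left out were 0.07 to 0.21 for Nlrp3, 0.07 to 0.45 for Nlrp1a, 0.20 to 0.40 for Naip2, 0.08 to 0.19 for Naip5, 0.17 to 0.30 for Naip6, 0.10 to 0.24 for Mefv, 0.15 to 0.41 for Nlrp12 and 0.15 to 0.27 for Nlrx1.

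Counts of all genes called, 92 in edgeR (68 higher, 73.9%), were 405 with DESeq2 (64.0% higher), 305 with voom (60.0%), 55 with the length offset, 49 and 50 on TPM with pseudocounts of 0.1 and 1 (87.8% and 90% higher), 21 on TPM without the filter, 198 at an adjusted p under 0.1, 12 at 0.01, and 17 to 65 with each library left out. The partner count (1 of 61, Myd88) was 4 with DESeq2, 2 with voom, 2 at 0.1, and 0 with the offset, on TPM, at 0.01 and with each library left out (0 to 0). The interferon-stimulated count (19 of 25) was 11 with the offset, 9 on TPM without the filter, 4 at 0.01 and 6 to 16 with each library left out. The marker count (2 of 87) was 19 with DESeq2, 11 with voom, 5 without the filter on counts, 0 on TPM without the filter, 7 at 0.1, 0 at 0.01 and 0 to 3 with each library left out. The cause was not tested.

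The labels do not say whether replicate numbers pair the samples. Deviations of same-numbered libraries from their group means correlated at 0.124, -0.0406 and -0.271, and those of differently numbered libraries at -0.231 to 0.261. Taken from the means of so few libraries, these correlations cannot decide whether the numbers pair samples. With the replicate number as a block, 0 members, 21 genes, 0 partner, 9 interferon-stimulated and 1 marker genes were called. Myh4 turned to -1.17 with voom, -0.48, -0.34 and -0.34 on TPM, -0.44 with the block and -1.51 to 1.64 with each library left out. Mylpf turned to -0.94, -0.22, -0.22, -0.22 and -0.41 under the same settings, and -1.37 to 1.03 with each library left out. Of 1160 values for 58 other named genes, 972 kept their direction and side of the threshold, 150 lost a call, 26 gained one and 12 turned. The members with the fewest reads were Nlrp1a (21 to 57 per library) and Nlrp1b (31 to 70 per library).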
